A study of Mus musculus with 32 samples.

Results

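The hemoglobin and red cell genes examined here were Hba-a1 (ENSMUSG00000069919), Hba-a2 (ENSMUSG00000069917), Hbb-bs (ENSMUSG00000052305), Hbb-bt (ENSMUSG00000073940), Alas2 (ENSMUSG00000025270), and Slc4a1 (ENSMUSG00000006574). They were chosen by name, as the rows of the count table whose Ensembl identifier maps to these symbols, and make up 6 of its 55357 genes. All 6 passed the filter on low counts in each comparison. The table came from RNA sequencing of dissected brain arteries of 32 mice, 8 per group and 1 library per mouse, in a study of whether altered NOTCH3 activity or another effect of a CADASIL mutation accounts for loss of arterial smooth muscle cells (SMCs). Notch3-/- mice, which lack a functional Notch3 gene, and their Notch3+/+ littermates were 3 months old. TgNotch3R169C mice, which carry a genomic transgene of rat Notch3 with the R169C mutation beside their own Notch3 genes, and their nontransgenic WT littermates were 12 months old. All mice were untreated and, by the study's methods, had been backcrossed to C57BL/6. Age and mouse line differ together between the pairs of groups, so they cannot be told apart, and sex is not in the labels used here.

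Adult hemoglobin is a tetramer of α-globin chains, from Hba-a1 and Hba-a2, and β-globin chains, from Hbb-bs and Hbb-bt. Alas2 makes the erythroid form of 5-aminolevulinate synthase, which starts heme synthesis, and Slc4a1 makes band 3, the chloride-bicarbonate exchanger that also anchors the red cell membrane to its skeleton. Mature red cells have no nucleus and transcribe nothing, so the globin mRNA of blood comes largely from reticulocytes, the youngest circulating red cells, which still hold mRNA made in the bone marrow. Arteries are full of blood in life. The study's methods describe decapitation, a rest of the brain in cold PBS, and dissection of the arteries under a stereomicroscope, and mention no perfusion for these mice, so blood left in the lumen would be sequenced with the vessel wall. In bulk tissue, fewer blood cells and less RNA per cell cannot be told apart.

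The β-globin locus differs between strains. C57BL/6 mice carry the s haplotype, with Hbb-bs and Hbb-bt, which encode the same protein, and other strains such as 129 carry the d haplotype, with Hbb-b1 and Hbb-b2, whose proteins differ. The table used here has rows for Hbb-bs and Hbb-bt, and Hbb-b1 and Hbb-b2 were not analysed here. The coding sequences of Hbb-bs and Hbb-bt, in GENCODE vM21, are 441 bases each and differ at 1 base, and those of Hba-a1 and Hba-a2 are 426 bases each and also differ at 1 base. A read from the coding part can therefore fit both genes of a pair. Among stretches of 100 bases of the transcript, 37.4% of those in Hbb-bs, 45.2% in Hbb-bt, 43.5% in Hba-a1, and 25.5% in Hba-a2 occur in no other gene. For Alas2 this share is 89.0% and for Slc4a1 100%. How reads that fit several genes were counted is not given in the sources used here, so the split between the genes of a pair, and their absolute level, are uncertain in a way that the levels of Alas2 and Slc4a1 are not.

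The promoters of the globin genes and Alas2 are shown as background. These genes moved together across mice, as described below, and whether the marked letters bear on that was not tested. RefSeq sequences of the 250 bases before each start site were read on build GRCm38.p6, and capitals mark matches on either strand to letters that erythroid and core promoter factors are known to bind. These are AGATAA or TGATAA, read by GATA factors (found in 16.6% of all 32851 mouse promoter windows of this length), CACCC, read by KLF1 (52.0%), CCAAT (33.8%), and ATATAA, known as the TATA box (9.1%). A match on the opposite strand appears as its reverse complement.
Hba-a1 (chr11:32283422-32283671, plus strand): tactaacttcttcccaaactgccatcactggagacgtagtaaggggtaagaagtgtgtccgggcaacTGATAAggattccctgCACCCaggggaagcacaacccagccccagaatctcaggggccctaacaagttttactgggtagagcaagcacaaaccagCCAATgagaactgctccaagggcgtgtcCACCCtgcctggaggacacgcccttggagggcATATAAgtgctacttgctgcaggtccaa
Hbb-bs (chr7:103827929-103828178, minus strand): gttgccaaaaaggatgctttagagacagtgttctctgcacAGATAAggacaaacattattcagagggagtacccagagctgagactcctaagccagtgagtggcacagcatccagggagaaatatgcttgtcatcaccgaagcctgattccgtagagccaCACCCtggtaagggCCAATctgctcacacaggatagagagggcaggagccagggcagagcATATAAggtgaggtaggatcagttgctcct
Hbb-bt (chr7:103813924-103814173, minus strand): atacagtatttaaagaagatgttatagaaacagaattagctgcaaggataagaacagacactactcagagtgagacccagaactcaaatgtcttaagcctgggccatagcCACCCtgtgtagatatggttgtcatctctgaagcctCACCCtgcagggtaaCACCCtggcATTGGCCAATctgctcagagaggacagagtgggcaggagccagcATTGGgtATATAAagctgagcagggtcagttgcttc
Alas2 (chrX:150547167-150547416, plus strand): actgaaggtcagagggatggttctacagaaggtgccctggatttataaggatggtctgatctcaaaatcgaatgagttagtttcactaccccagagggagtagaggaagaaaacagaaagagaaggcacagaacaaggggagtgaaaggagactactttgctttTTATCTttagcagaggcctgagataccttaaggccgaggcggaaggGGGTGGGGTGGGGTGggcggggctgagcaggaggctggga

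The windows of Hba-a1 and Hbb-bs held all 4 kinds of letters. The window of Hbb-bt held 3 CACCC, 3 CCAAT, of which 2 lie on the opposite strand, and 1 ATATAA, and these GATA letters were not in it. The window of Alas2 held 1 GATA match and 3 adjacent CACCC matches, all on the opposite strand, and neither of the other letters. Hba-a2 (chr11:32296242-32296491, plus strand) shared an unbroken run of 247 of the 250 bases with Hba-a1 and is not printed. By contrast, the longest run shared by Hbb-bs and Hbb-bt was 14 bases, so the near identity of their coding sequences does not extend to this window. Compared position by position without alignment, Hbb-bs and Hbb-bt had the same base at 51 of 250 positions. Hba-a1 and Hba-a2 had it at only 67 despite their long shared run, so this count misses likeness between shifted windows. Likeness after alignment was not measured. Slc4a1 has no entry in the promoter table.

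Libraries held 20289487 to 54481934 counts, and the 4 globin genes took 0.0567% to 0.311% of them. Notch3 was lower in Notch3-/- mice (log2 fold change −2.37, SE 0.0924) and higher in TgNotch3R169C mice (1.31, SE 0.115), which fits the labels. SMC and endothelial markers were present in every library. In 7 libraries, 1 from a Notch3-/- mouse, 2 from TgNotch3R169C mice, and 4 from WT mice at 12 months, 8 choroid plexus genes summed to 13208 to 39136 CPM (counts per 1000000 counts of a library), against 472 to 1045 CPM in the other 25. Some results are therefore also given without these 7 libraries. Levels are in CPM after TMM scaling, the edgeR normalization that matches libraries on the bulk of their genes.

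All 6 genes were detected in every mouse. Hbb-bs was the most abundant, with a mean of 848 ± 324 CPM (SD, n = 32), rank 81 of all genes, and 1104 CPM per kb of exon. Hba-a1 had a mean of 179 ± 68.5 CPM, Hbb-bt 143 ± 58.6 CPM, and Hba-a2 110 ± 43.1 CPM, which are 221, 203, and 165 CPM per kb. Alas2 had a mean of 56.6 ± 22.4 CPM, or 23.6 CPM per kb, and Slc4a1 5.09 ± 2.77 CPM, or 1.04 CPM per kb. The order per kb was thus β-globin Hbb-bs, the other 3 globins, Alas2, and Slc4a1. Between the mouse with the most and the mouse with the least, Hbb-bs differed 5.51-fold, Hba-a1 5.40-fold, Hba-a2 5.29-fold, Hbb-bt 6.12-fold, Alas2 6.65-fold, and Slc4a1 8.78-fold. For the globins and Alas2 the extremes were the same 2 animals, Notch3-/- mouse 1 at the top and TgNotch3R169C mouse 5, a choroid plexus-rich library, at the bottom. Slc4a1 had other extremes, WT mouse 4 at 12 months (13.4 CPM, also choroid plexus-rich) and Notch3-/- mouse 6 (1.53 CPM). Counting error was small beside this spread. Within groups the coefficient of variation of Slc4a1 was 45.9% to 61.0%, and counting alone would give 6.82% to 8.22%.

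Other globins were scarce. Hbb-y, an embryonic β-like globin, had group means of 1.41 to 1.78 CPM. Hba-x, Hbb-bh0, Hbb-bh1, Hbq1a, and Hbq1b did not exceed 8 counts in any library, and Hbb-bh2 had 0 counts in all 32.

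**Figure D1:**
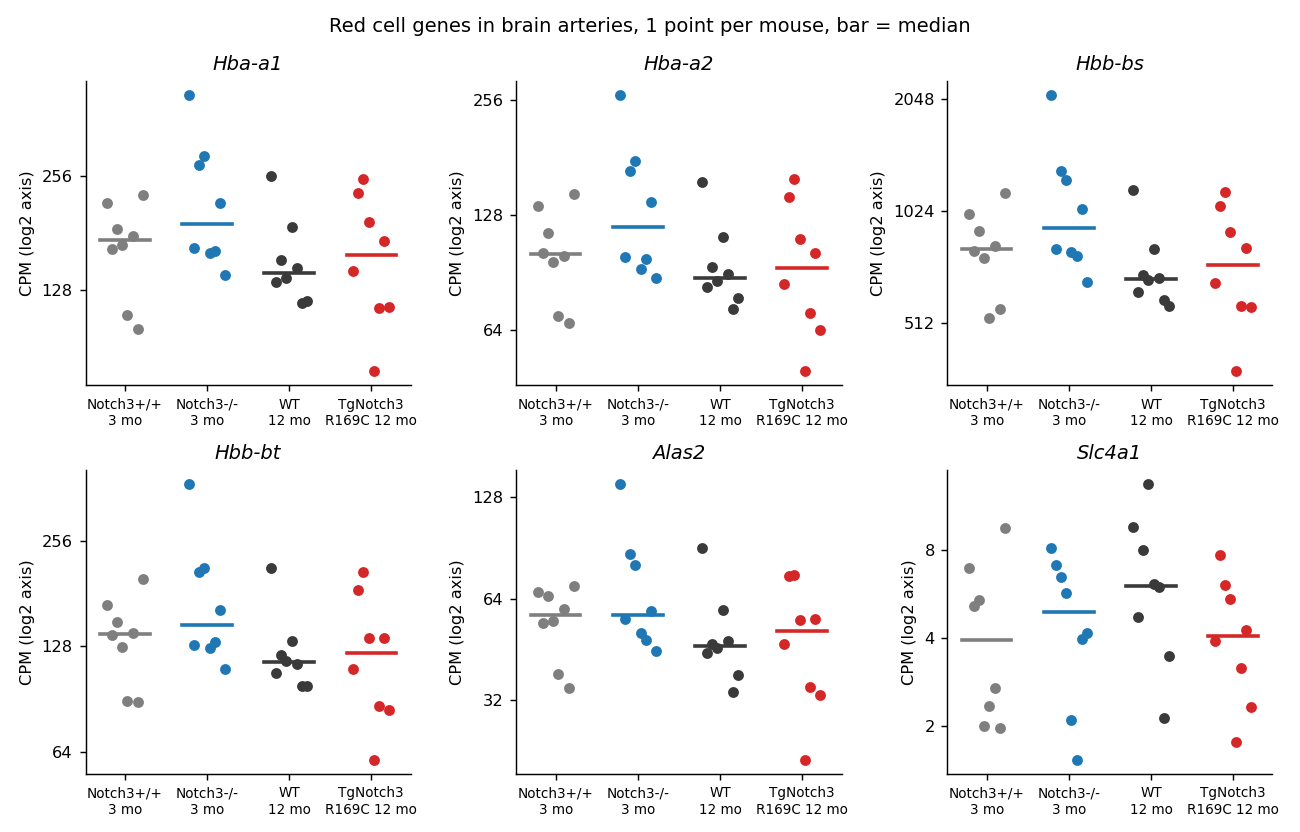
CPM of each gene in each mouse (log2 axes, one panel per gene), by group, with 8 points per group and a bar at the group median. Groups overlap in every panel, and Notch3-/- mouse 1 is the highest point for the globins and Alas2 but not for Slc4a1.

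Whether loss of Notch3 changed the amount of red cell RNA in the artery samples was examined first. Summed over the 4 globins, the lowest, median, and highest Notch3+/+ mice were at 797, 1221, and 1720 CPM, and the Notch3-/- mice at 998, 1378, and 3155 CPM. The next highest Notch3-/- mouse was at 1959 CPM. Most mice of both groups thus lay in the same range, with a few Notch3-/- mice above it. Hbb-bs was at 528, 810.2, and 1146 CPM (lowest, median, highest) in Notch3+/+ mice and at 660.0, 921, and 2097 CPM in Notch3-/- mice. Hba-a1 was at 101, 173, and 228 CPM in Notch3+/+ and at 140.0, 192, and 421 CPM in Notch3-/- mice. Alas2 was at 34.8, 57.2, and 69.5 CPM in Notch3+/+ and at 44.7, 57.2, and 141 CPM in Notch3-/- mice. For the globins and Alas2, 3 of 8 Notch3-/- mice exceeded every Notch3+/+ mouse, and 4 of 8 exceeded their median. Slc4a1 was at 1.96, 3.91, and 9.49 CPM in Notch3+/+ and at 1.53, 4.91, and 8.12 CPM in Notch3-/- mice, and no Notch3-/- mouse exceeded the highest Notch3+/+ mouse.

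None of the 6 genes passed the test in Notch3-/- mice (0 of 6, also 0 of 6 at an unadjusted p below 0.05, edgeR quasi-likelihood test), where 0.649% of all 17714 genes tested were called and 7.69% had an unadjusted p below 0.05. The estimates were all above 0. Hbb-bs was at 0.42 on the log2 scale (SE 0.224, Benjamini-Hochberg adjusted p = 0.731, edgeR), a 1.34-fold difference whose 95% interval ran from 0.963-fold to 1.86-fold. Hba-a1 had 0.44 (SE 0.228, adjusted p = 0.715, edgeR), Hba-a2 0.44 (SE 0.231), and Hbb-bt 0.40 (SE 0.238). Alas2 had 0.35 (SE 0.225) and Slc4a1 0.12 (SE 0.385, 95% CI −0.70 to 0.93). The median over the 6 was 0.41, and that over all genes tested was −0.0011. One animal carried much of this difference. Without Notch3-/- mouse 1 the log2 fold change of Hbb-bs was 0.22, that of Hba-a1 0.26, that of Hba-a2 0.26, that of Hbb-bt 0.18, and that of Alas2 0.15, and Slc4a1 was at −0.015. Without the choroid plexus-rich library, Notch3-/- mouse 8, Hbb-bs was at 0.50 and Hba-a1 at 0.52.

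Next, TgNotch3R169C mice were compared with WT mice at 12 months. The globin sums were 569, 1109, and 1770 CPM (lowest, median, highest) in TgNotch3R169C mice and 864, 1019, and 1792 CPM in WT mice. Hbb-bs was at 381, 735, and 1151 CPM in TgNotch3R169C and at 568, 674, and 1164 CPM in WT mice. Hba-a1 was at 78.0, 158, and 252 CPM in TgNotch3R169C and at 119, 142, and 257 CPM in WT mice. Alas2 was at 21.2, 51.1, and 75.2 CPM in TgNotch3R169C and at 33.8, 46.2, and 90.6 CPM in WT mice. The TgNotch3R169C values spread further down, with 2 mice below every WT mouse for Hbb-bs and Alas2 and 3 for Hba-a1, Hba-a2, and Hbb-bt, while the upper ends were close. Slc4a1 was at 1.76, 4.07, and 7.65 CPM in TgNotch3R169C and at 2.13, 6.01, and 13.4 CPM in WT mice. Only 2 of 8 TgNotch3R169C mice lay above the WT median of Slc4a1, and 1 lay below every WT mouse.

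Again 0 of 6 genes passed the test, and 0 of 6 had an unadjusted p below 0.05 (edgeR), with 0.113% of 17731 genes called and 7.28% below an unadjusted 0.05. For the globins and Alas2 the estimates lay between −0.03 (Alas2, SE 0.251) and 0.08 (Hbb-bs, SE 0.210, 95% CI −0.37 to 0.52). The interval of Hbb-bs allowed differences from 0.774-fold to 1.43-fold, so a moderate change in either direction was not detectable with 8 mice per group. Slc4a1 was estimated lower, at −0.62 on the log2 scale (adjusted p = 0.724, edgeR, with an SE of 0.351 and an interval of −1.37 to 0.12). This value also depended on a few libraries, since it was −0.40 without WT mouse 4 and −0.20 without the 6 choroid plexus-rich libraries of these groups. Neutrophil genes, whose levels followed Slc4a1 across mice as described with the blood cell markers, were also estimated lower in 8 of the 10 tested, with a median log2 fold change of −0.96, 6 of 10 at an unadjusted p below 0.05, and 0 called (edgeR). Their part in the Slc4a1 value was not tested. The median over the 6 genes was 0.016, beside −0.0074 over all genes.

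Last, the control groups were compared with each other, WT at 12 months against Notch3+/+ at 3 months, which differ in age and line. They also differ in choroid plexus-rich libraries, with 4 of 8 among WT mice and 0 of 8 among Notch3+/+ mice. Here 8.00% of 17643 genes were called and 24.4% had an unadjusted p below 0.05, and none of the 6 genes was called or had such a p (edgeR). Hbb-bs was −0.18 (SE 0.170, 95% CI −0.53 to 0.18) and Slc4a1 0.57 (SE 0.388, 95% CI −0.25 to 1.39), and the other 4 lay between −0.14 and −0.11. Neutrophil genes were estimated higher at 12 months in 10 of the 11 tested (median log2 fold change 0.91), with 6 of 11 at an unadjusted p below 0.05 and 1 called (Csf3r, edgeR), and their part in the Slc4a1 value was not tested. The median over the 6 was −0.12, beside 0.0041 over all genes. This comparison shares the Notch3+/+ mice with the first and the WT mice with the second. Whether the mutants changed differently was read from a contrast in 1 fit of all 4 groups, in which 0.350% of 18555 genes were called. This contrast ranged from −0.42 (Hba-a2, SE 0.332) to −0.34 (Hbb-bs, SE 0.315) for the globins and Alas2 and was −0.74 (SE 0.537) for Slc4a1, with adjusted p values of 0.725 to 0.794 (edgeR), so no gene was called.

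**Figure D2:**
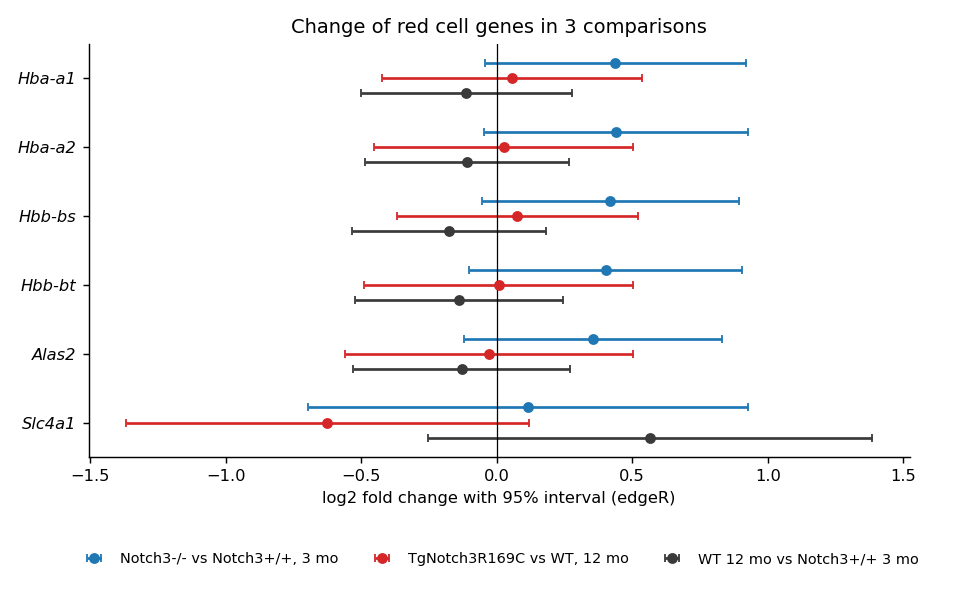
Log2 fold change of each gene with its 95% interval from edgeR, for Notch3-/- against Notch3+/+ mice, TgNotch3R169C against WT mice, and WT mice at 12 months against Notch3+/+ mice at 3 months (n = 8 per group). All 18 intervals include 0, and those of Slc4a1 are the widest.

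The genes were then compared with each other across mice, as log2 CPM with each group's mean removed (n = 32, within-group permutation tests, 15 pairs). Among the 4 globins Pearson's r was 0.987 to 0.993, and between Alas2 and the globins it was 0.973 to 0.982. Spearman's rho was 0.988 to 0.992 and 0.964 to 0.970 for the same pairs. For Slc4a1 with the other 5 genes r was 0.718 to 0.739 and rho 0.731 to 0.764. All 15 pairs had a permutation p and a Benjamini-Hochberg adjusted p of 1e-05 for both measures, the smallest that 100000 permutations can give. With TgNotch3R169C mouse 5 and Notch3-/- mouse 1, the 2 farthest from the median, left out, r remained 0.984 to 0.990 among globins, 0.967 to 0.977 for Alas2, and 0.678 to 0.708 for Slc4a1. Without the 7 choroid plexus-rich libraries r of Slc4a1 with the others was 0.753 to 0.783. The values for Slc4a1 were 0.688 to 0.724 at 3 months and 0.752 to 0.786 at 12 months. By group they were 0.955 to 0.970 in TgNotch3R169C mice and 0.557 to 0.622 in WT mice at 12 months, a difference that was not tested.

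Ratios of counts, which do not depend on library size, show the same in plain units. Alas2 had 37.2 to 50.6 counts per 1000 globin counts over the 32 mice (mean 44.1, coefficient of variation 7.34%). Its group means were 45.4 ± 2.88 in Notch3+/+, 43.0 ± 2.68 in Notch3-/-, 42.6 ± 3.35 in TgNotch3R169C, and 45.4 ± 3.49 in WT mice (SD, n = 8). A mouse with more globin mRNA thus had more Alas2 mRNA in nearly fixed proportion. Slc4a1 ranged over 10.1-fold, from 1.31 to 13.3 counts per 1000 globin counts (coefficient of variation 54.0%). Its means were 3.44 ± 1.33 in Notch3+/+, 3.06 ± 1.44 in Notch3-/-, 3.65 ± 0.605 in TgNotch3R169C, and 6.03 ± 3.28 in WT mice, where mouse 4 had 13.3 and the next 7.53. These ratios were not tested between groups. α-Globin genes took 20.6% to 24.3% of the counts of the 4 globins (mean 22.6%), although the chains are used in equal numbers in hemoglobin, and how shared reads were counted bears on that share.

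**Figure D3:**
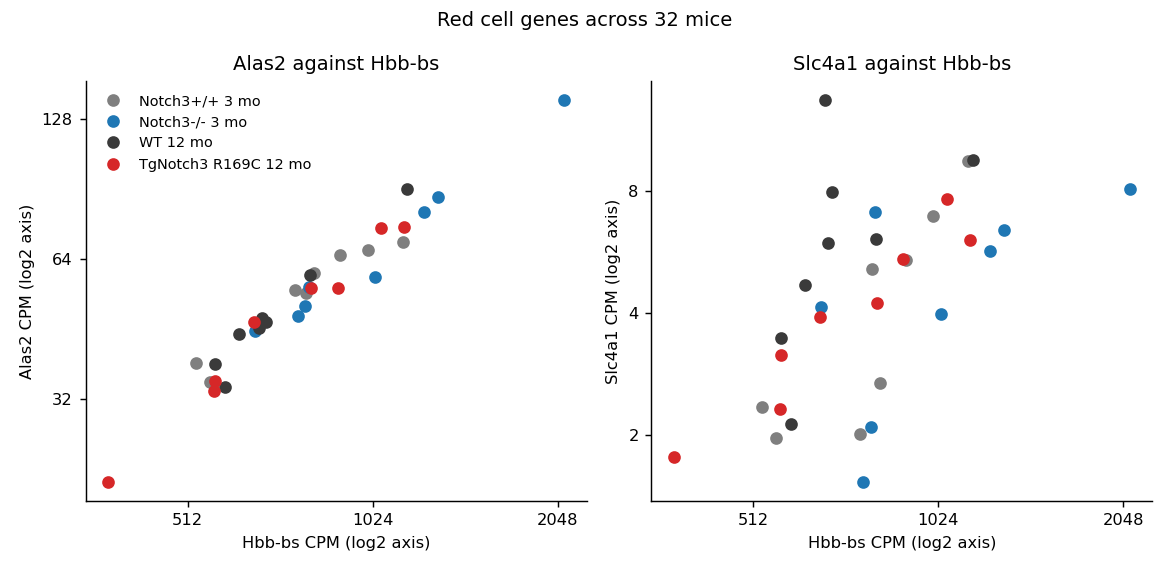
Alas2 (left) and Slc4a1 (right) against Hbb-bs, in CPM on log2 axes, with 1 point per mouse coloured by group (32 mice). Alas2 lies close to a line, and Slc4a1 is scattered, with WT mouse 4 at 12 months high in Slc4a1 (13.4 CPM) at an ordinary Hbb-bs level (670.3 CPM).

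The share of Hbb-bt in the β-globin counts compares the genes of the pair within a library. It was 13.0% to 15.5% over the 32 mice (mean 14.3%, SD 0.612), so no mouse stood apart from the rest. Group means were 14.4% ± 0.334 in Notch3+/+, 14.2% ± 0.543 in Notch3-/-, 14.0% ± 0.855 in TgNotch3R169C, and 14.7% ± 0.454 in WT mice (SD, n = 8). The lowest share was in TgNotch3R169C mouse 8 and the highest in WT mouse 1. In each group the mouse with the highest share also had the highest globin sum (Notch3+/+ mouse 8, Notch3-/- mouse 1, TgNotch3R169C mouse 3, and WT mouse 1). Whether the share depends on the amount of globin was not tested. The haplotype of the mice was not tested. TgNotch3R169C mice were 0.705 percentage points below WT mice (two-sided exact permutation p = 0.0609, Benjamini-Hochberg adjusted over 6 share tests 0.366). Notch3-/- mice were 0.219 points below Notch3+/+ mice (exact permutation p = 0.338), and WT mice were 0.295 points above Notch3+/+ mice (exact permutation p = 0.165). None passed the threshold.

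Hba-a2 took 35.6% to 39.8% of the α-globin counts (mean 38.0%, SD 0.972), with group means of 37.6% to 38.2%. Differences were −0.134 points in Notch3-/- mice, −0.614 in TgNotch3R169C mice, and 0.0504 between the control groups (exact permutation p = 0.797, 0.218, and 0.920). The 95% Wilson interval of a mouse's share, which covers counting error only, held the mean of all mice in 14 of 32 mice for Hbb-bt and in 24 of 32 for Hba-a2.

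**Figure D4:**
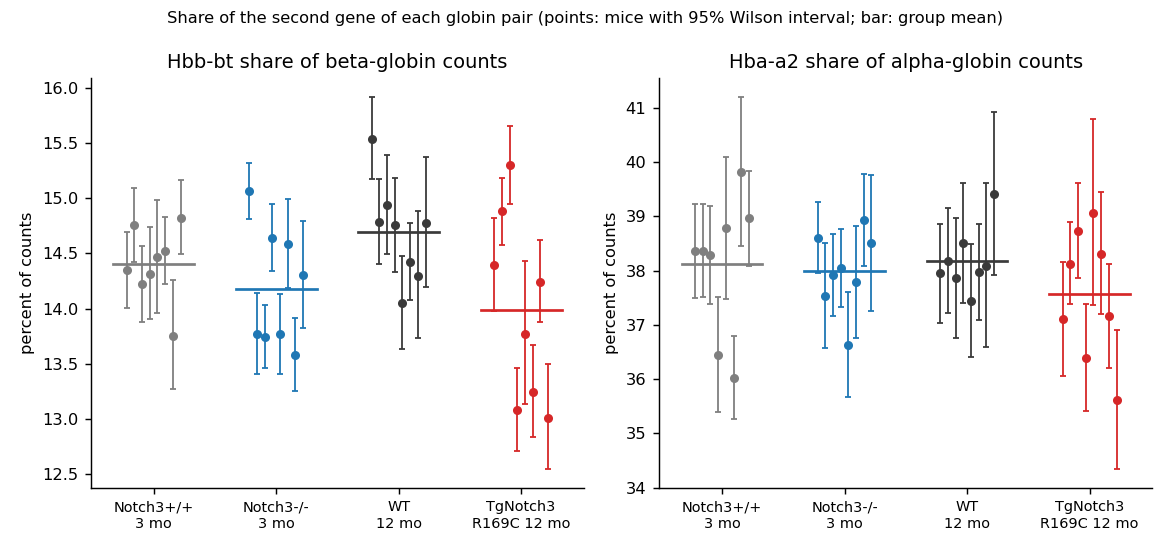
Share of Hbb-bt in β-globin counts (left) and of Hba-a2 in α-globin counts (right) in percent, per mouse with its 95% Wilson interval, by group, with a bar at the group mean. Shares lie between 13.0% and 15.5% and between 35.6% and 39.8%, and the axes do not start at 0.

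Genes whose levels followed the globins were ranked by Pearson's r with the summed globins over the 32 mice, as a description. The 10 with the highest r were Isg20 (0.816), Il18rap (0.810), Gp9 (0.802), Gpx1 (0.799), Gm10371 (0.795), Napsa (0.784), Mkrn1 (0.779), Trim10 (0.773), Camp (0.760), and Alox5ap (0.755). Of all 18555 genes, 90% had r between −0.450 and 0.463. Gpx1 encodes a peroxidase abundant in red cells, Gp9 a platelet glycoprotein, Il18rap a receptor chain of lymphocytes, and Camp the cathelicidin of neutrophil granules. The genes nearest the globins therefore included products of red cells, platelets, lymphocytes, and neutrophils, the kinds of cell found in blood. At the other end were Kidins220 (−0.779), Wdr59 (−0.772), Tnrc18 (−0.761), Hif1an (−0.753), and Thsd7a (−0.744).

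Genes were also ranked by r with Slc4a1. This ranking was added after its weaker relation to the globins had been seen. Among the genes with the highest r with Slc4a1 were Ngp (0.907), Camp (0.878), Trim10 (0.877), Hemgn (0.873), S100a9 (0.869), Epb42 (0.866), S100a8 (0.859), and Ermap (0.844). The r of these genes with the summed globins was 0.481 to 0.773. Epb42 encodes protein 4.2, a partner of band 3 at the red cell membrane, and Ermap is another erythroid membrane protein. Ngp and Camp, by contrast, are granule proteins that developing neutrophils make in the bone marrow, and S100a8 and S100a9 are the main cytosolic proteins of neutrophils. Camp and Trim10 were among the 10 highest for the globins too. The red cell membrane list as a whole (15 tested) had a median r of 0.248 with Slc4a1, from −0.15 to 0.87, and 0.185 with the globins, so some of its genes followed Slc4a1 and others did not. The genes named are low in these samples, with mean levels of 0.421 to 9.97 CPM.

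**Figure D5:**
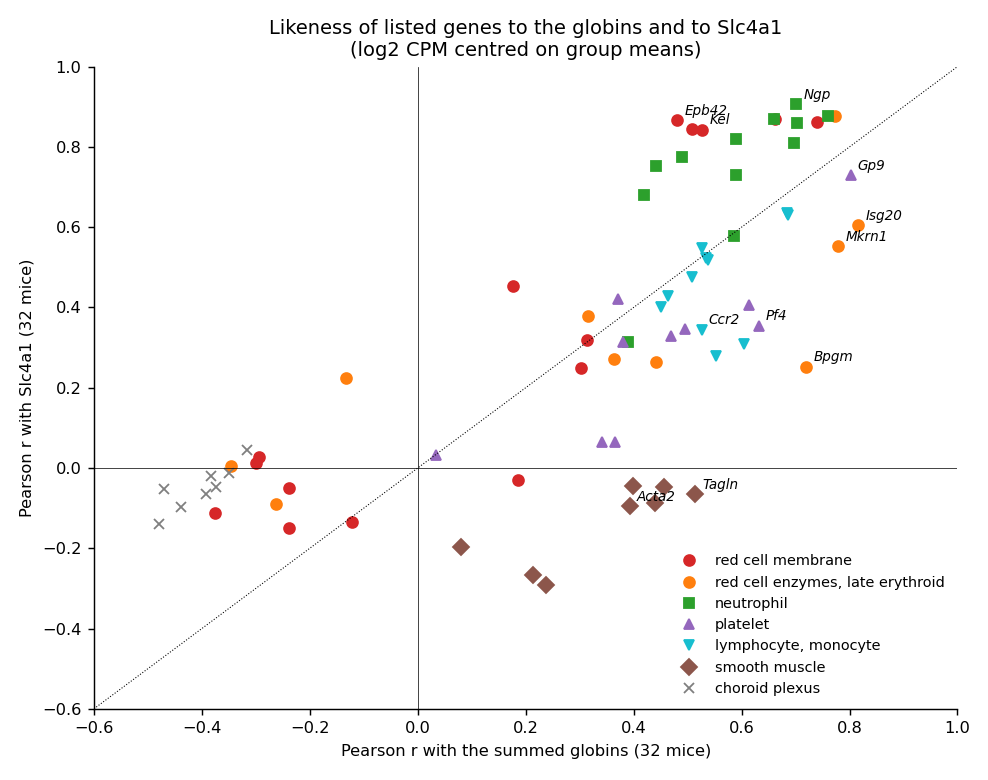
Pearson's r of listed genes with the summed globins (x axis) and with Slc4a1 (y axis) over 32 mice, from log2 CPM centred on group means, with the dotted line at equal r. Above the line lie 10 of 12 neutrophil genes, 12 of 15 red cell membrane genes, and all 8 choroid plexus genes. Isg20, Mkrn1, Bpgm, Pf4, and the smooth muscle genes lie below it.

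Blood cell markers moved with these genes to different degrees, least for the platelet list, and their part in the results was not tested. The neutrophil list, all 13 of its genes in the table and none at 0 in every library, summed to 27.2 to 114 CPM in Notch3+/+, 27.0 to 202 CPM in Notch3-/-, 31.6 to 185 CPM in TgNotch3R169C, and 43.9 to 177 CPM in WT mice. WT mouse 4, the highest for Slc4a1, was at 177 CPM, with Ngp at 27.0 CPM and Camp at 9.72 CPM, the highest of all mice for both. Notch3-/- mouse 1, the highest for the globins, was at 72.2 CPM. The median r of the 12 neutrophil genes tested was 0.590 with the globins and 0.792 with Slc4a1, and 10 of the 12 had the higher r with Slc4a1. Platelet genes, from 31.5 to 56.5 CPM in sum, had medians of 0.425 and 0.337. Both lay inside the range of most genes (−0.45 to 0.463 and −0.348 to 0.361). Single platelet genes ran from 0.0334 to 0.802 with the globins. Lymphocyte and monocyte genes, from 28.9 to 87.7 CPM, had medians of 0.535 and 0.476. Over all genes the medians were −0.031 and −0.0237. Smooth muscle genes had median r of 0.396 with the globins and −0.0907 with Slc4a1, endothelial genes 0.195 and −0.136, neuron genes −0.146 and −0.0713, and astrocyte and oligodendrocyte genes −0.0839 and 0.00658. Choroid plexus genes had −0.388 and −0.050, both inside the range of most genes. The choroid plexus-rich libraries had the lowest sums of the 6 genes in Notch3-/- mice (mouse 8, 1047 CPM) and in TgNotch3R169C mice (mice 5 and 8, 592 and 865 CPM). In WT mice at 12 months they did not, with 994 to 1307 CPM in the 4 rich libraries and 905 to 1892 CPM in the other 4.

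The rest of the red cell program was read from lists of the pathway, beside shares of all genes called of 0.649% in Notch3-/- mice, 0.113% in TgNotch3R169C mice, and 8.00% between the control groups. Of the membrane and skeleton genes, 14 were tested and 0 were called in either mutant, and in the control comparison 2 were called, Sptb (β-spectrin, log2 fold change 1.09) and the water channel Aqp1 (2.84), both higher at 12 months, a count near the share of all genes called. Neither followed the globins (r −0.300 and −0.375). Aqp1 is also a choroid plexus gene, and the choroid plexus sum was above 10000 CPM in 4 of 8 WT mice and in none of the Notch3+/+ mice. Among heme synthesis and iron uptake genes, 13 tested, none was called in a mutant. Alad, the second enzyme of the pathway, was called between the control groups. It was 0.38 higher on the log2 scale in WT mice at 12 months than in Notch3+/+ mice at 3 months (adjusted p = 0.00326, edgeR). The housekeeping synthase Alas1 was below Alas2 in level per kb of exon in every group (means of 10.9 to 12.4 against 20.6 to 29.5 CPM per kb) and had r of 0.0758 with the globins. Fech and Slc25a37, which complete heme synthesis and bring iron into mitochondria, had r of 0.449 each, the highest of this list, whose median was 0.0448 and lowest −0.441.

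Of the red cell enzymes and late erythroid genes, 10 were tested and none was called in a mutant. Between the control groups 1 was called lower and 1 higher, beside 8.00% of all genes. Bpgm, which makes the 2,3-bisphosphoglycerate that lowers the oxygen affinity of hemoglobin, followed the globins (r 0.720) and was lower in WT at 12 months than in Notch3+/+ mice (log2 fold change −0.28, adjusted p = 0.0403, edgeR). Car2, carbonic anhydrase 2, was 1.39 higher in WT at 12 months and did not follow the globins (r −0.346). The choroid plexus sum was above 10000 CPM in 4 of 8 of those WT mice and in no Notch3+/+ mouse. The part of choroid plexus RNA in both differences was not tested. Isg20 and Mkrn1, both induced late in erythroid differentiation, were among the nearest genes. No erythroid transcription factor or receptor gene was called in any comparison (6 tested). Klf1 was at 0.389 CPM and Nfe2 at 1.52 CPM on average, with r of 0.150 and 0.658. The lists of heme scavenging (9 tested, among them Cd163, Hmox1, and Fth1) had 0 calls in each comparison. Cd163, the macrophage receptor for haptoglobin-bound hemoglobin, had r of 0.337, and Hp, haptoglobin itself, 0.707 with the globins and 0.819 with Slc4a1.

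Both globin clusters are flanked by genes that are not erythroid. Of the 10 nearest tested protein-coding neighbors of the β-globin cluster on chromosome 7, Olfr78 (log2 fold change 1.19) and Olfr560 (1.32) were called in Notch3-/- mice (adjusted p = 0.0101 and 0.0293, edgeR). That is 2 of 10, beside 0.649% of all genes. Olfr560 was scarce, at a mean of 0.189 CPM, and was not tested in the other comparisons. Olfr78, an olfactory receptor known from vascular smooth muscle, was at a mean of 4.67 CPM with r of 0.228 to the globins. Between the control groups Olfr78 (−0.72) and Olfr558 (−0.93) were lower at 12 months, 2 of 9 tested beside 8.00% of all genes. No neighbor was called in TgNotch3R169C mice. Around the α-globin cluster on chromosome 11, where Nprl3 hosts the enhancers of α-globin in its introns, no neighbor was called in any comparison, and Nprl3 had r of −0.226.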

How the data were processed

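Brain arteries of 32 mice were sequenced after poly(A) selection (stranded kit, 13 PCR cycles). What the authors deposited is a table of raw counts, unnormalized, with Ensembl genes in rows. Per the labels, the submitters' processing notes name bcl2fastq 2.20.0.422, cutadapt 1.10, Bowtie2 2.2.8, STAR 2.5.3a, HTSeq 0.6.1p1, and mm39. Annotation release, strand setting, and treatment of multiply mapped reads are not given in the sources used here. All 32 columns were matched to mice by name. No pair of libraries within a group was a duplicate (chi-square per gene 10.8 to 150). P values judge differences and correlations against the spread between mice.

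Symbols came from a table of mouse gene names (52081 of 55357 matched). GENCODE vM21 gave exon lengths, chromosomes, neighbors, and transcript stretches, and RefSeq gave promoters. The reference build is older than mm39, so coordinates are given for promoters alone. Two-group fits used edgeR 4.0.16 (filterByExpr, TMM, quasi-likelihood, Benjamini-Hochberg adjusted p below 0.05) in R 4.3.3. CPM used TMM-scaled totals, and log2 values a prior count of 1. Shares were compared by exact permutation over 12870 divisions (smallest p 0.000155). On simulated data the fits recovered 63.9% of changed genes for Notch3-/-, 67.9% for TgNotch3R169C, and 73.5% for the control groups, with 3.88%, 5%, and 5.88% false calls, over 17569, 17618, and 17525 genes.

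Genes named are the 6 genes of the title list, the called and most abundant genes of each list, the 10 nearest and 5 farthest genes by r, and cluster neighbors. Others were named after their values were seen, among them genes near Slc4a1, of which some are not reported here. Members and lists were chosen with earlier results of these data known. Alternatives were other normalizations (RLE, upper quartile, without globins), filters, DESeq2 1.42.0, limma 3.58.1 voom, a robust fit, all 4 groups, a replicate block, and single mice left out, and, chosen after seeing the data, leaving out the choroid plexus-rich libraries.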

Additional observations from a re-analysis of the deposited data

Results flagged for a closer look

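Each gene and ratio was examined in each group for a single mouse far from the other 7 (Dixon's ratio of the gap to the range, above 0.526 for 8 mice). Of 40 groups, 8 had one, where chance gives about 2, and the genes are not independent of each other. Notch3-/- mouse 1 stood apart for Hbb-bs (2097 CPM against 1309 in the next mouse, ratio 0.548), Hbb-bt (372 against 213 CPM, 0.606), and Alas2 (141 against 86.8 CPM, 0.561). WT mouse 1 at 12 months stood apart for Hba-a2 (157 against 112 CPM, 0.533), Hbb-bs (1164 against 810 CPM, 0.594), Hbb-bt (214 against 132 CPM, 0.707), and Alas2 (90.6 against 59.0 CPM, 0.557). Both animals were high for several red cell genes at once. WT mouse 4 at 12 months stood apart for Slc4a1 per 1000 globin counts (13.3 against 7.53, ratio 0.530), and its library was rich in choroid plexus RNA (38290 CPM). What sets these mice apart was not tested.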

How the results depend on the processing

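No member was called under any alternative (162 values per comparison, lowest adjusted p 0.530, 0.594, and 0.203 for Notch3-/-, TgNotch3R169C, and the control groups, edgeR, DESeq2, or limma voom). Genes called numbered 278 with DESeq2 and 174 with all 4 groups in Notch3-/- (main 115), 79 with DESeq2, 6 with the replicate block, and 2 without the choroid plexus-rich libraries in TgNotch3R169C (main 20), and 2266, 736, and 402 with the same between controls (main 1412). Leaving out single mice gave 73 to 135, 11 to 26, and 901 to 1621 calls. In TgNotch3R169C mice log2 fold changes near 0 changed sign, with limma voom for Hba-a1 (−0.0012), Hba-a2 (−0.036), and Hbb-bt (−0.060), with the block for Hba-a2 (−0.030) and Hbb-bt (−0.053), and without the choroid plexus-rich libraries for Alas2 (0.12). With single mice left out they ran from −0.064 to 0.20 (Hba-a1), −0.11 to 0.16 (Hba-a2), −0.036 to 0.21 (Hbb-bs), −0.14 to 0.17 (Hbb-bt), and −0.14 to 0.15 (Alas2), and Slc4a1 in Notch3-/- mice from −0.015 to 0.37. The TgNotch3R169C difference in Hbb-bt share was −0.757 points with medians (exact permutation p = 0.0348) and −0.891 to −0.565 with single mice left out (lowest p 0.0145 without TgNotch3R169C mouse 3, all unadjusted). Differences in Hba-a2 share ran from −0.434 to 0.108 (Notch3-/-) and −0.250 to 0.292 (controls, −0.329 with medians). The causes were not tested. All 15 correlations kept their sign and side of the threshold. Same-numbered mice deviated together (r above 0.1) in 4, 4, and 3 of 8 pairs, with r up to 0.329, 0.421, and 0.231. These values cannot settle whether the numbers pair the mice, so the replicate block was kept as an alternative. The other alternatives kept direction and side of the threshold. Depth did not limit the globins (at least 1224 counts per library), and Slc4a1 had 43 to 448.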
